A study of Mus musculus with 12 samples.

Results

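The genes described here are 9 chemokine ligands (Ccl1, Ccl3, Ccl4, Ccl5, Ccl17, Ccl22, Cxcl2, Cxcl3 and Xcl1) and Xcr1, the receptor of Xcl1, as measured in group 2 innate lymphoid cells (ILC2s) of mouse lung. They were taken by gene symbol from the deposited tables, 10 genes in all. Of these, 10 of 21361 listed genes are in the table of sorted fractions and 6 of 18601 are in the table of knockout and wild-type cells, where Ccl3, Ccl4, Ccl17 and Xcl1 are not listed. The study asked by RNA sequencing how ILC2s differ with and without LAIR-1, an inhibitory receptor for collagen. Its 12 libraries form 4 groups of 3. KO libraries 13, 14 and 15 came from ILC2s of mice labelled LAIR-1 KO, and WT libraries 9, 10 and 11 from ILC2s of wild-type mice. LAIR-1- libraries 7, 8 and 10 and LAIR-1+ libraries 1, 2 and 3 came from ILC2s without and with surface LAIR-1. All mice were C57BL/6, aged 8 weeks, and had received 3 intranasal doses of IL-33 (0.5 µg per mouse), the alarmin that activates lung ILC2s. All cells were then cultured in 10 ng per mL of IL-2 and of IL-7 for 24 hours, so every group has seen IL-33, IL-2 and IL-7. The labels do not say how the knockout was made, whether WT cells were also gated on LAIR-1, or whether replicates are separate animals. The p-values therefore measure the spread between these libraries, which may be technical.

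Chemokines are small secreted proteins that bind G protein-coupled receptors on other cells and draw those cells along a gradient. Cxcl2 and Cxcl3 attract neutrophils through Cxcr2. Ccl3, Ccl4 and Ccl5 draw monocytes and effector lymphocytes, and Ccl3 and Ccl5 bind Ccr1. Ccl17 and Ccl22 bind Ccr4, the receptor of type 2 helper T cells and ILC2s, and Ccl1 binds Ccr8. Xcl1, a product of NK cells and CD8 T cells, binds Xcr1, known as the receptor of the cross-presenting dendritic cells called cDC1. In type 2 inflammation of the lung, Ccl17 and Ccl22 are known mainly from dendritic cells and macrophages.

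Cxcl2 and Cxcl3 are neighbours on chromosome 5 (mm10), 114270 bases apart on the + strand, at chr5:90903871-90905938 and chr5:90786103-90789600. The stretches before their starts are shown because both genes carry the same 11 letters, and that of Ccl3 because it has no such match. They come from RefSeq (GRCm38.p6), whose promoter table holds 8 of the 10 genes, and are written 5′ to 3′ on the gene's own strand. Capitals mark matches to the NF-kappaB consensus, searched on both strands in the 250 bases before each RefSeq start.
Cxcl2, chr5:90903649-90903870, + strand: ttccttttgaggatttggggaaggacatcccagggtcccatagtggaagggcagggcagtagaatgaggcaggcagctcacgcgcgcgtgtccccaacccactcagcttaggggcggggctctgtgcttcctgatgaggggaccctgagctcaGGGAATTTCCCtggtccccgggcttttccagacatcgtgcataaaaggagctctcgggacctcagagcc
Cxcl3, chr5:90785851-90786100, + strand: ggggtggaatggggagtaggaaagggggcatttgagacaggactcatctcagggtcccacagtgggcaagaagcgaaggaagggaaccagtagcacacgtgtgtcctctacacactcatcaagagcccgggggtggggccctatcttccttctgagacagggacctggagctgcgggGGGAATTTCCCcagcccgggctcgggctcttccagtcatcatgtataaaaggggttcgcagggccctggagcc
Ccl3, chr11:83649379-83649628, - strand: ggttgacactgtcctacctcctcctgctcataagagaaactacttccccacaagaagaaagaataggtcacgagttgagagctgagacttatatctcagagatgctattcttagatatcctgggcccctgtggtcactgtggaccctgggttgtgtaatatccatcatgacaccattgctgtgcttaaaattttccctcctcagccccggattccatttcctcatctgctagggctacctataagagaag
The capital run, 2 overlapping matches, lies at positions -97 to -87 from the RefSeq start of Cxcl2 and -73 to -63 from that of Cxcl3. The last 28 bases before the RefSeq start of Cxcl2 lie inside the deposited gene and are left off above. Of 32851 promoters of the same length in the table, 3.9% hold the consensus. No match was found in the windows of the other 6 of these genes in the table. A TATA box (TATAAA, either strand, in 12.4% of promoters) lies at -30 to -25 before Cxcl3, and another on the opposite strand at -160 to -155 before Xcr1. The AP-1 motif TGANTCA (6.75% of promoters) was found before none of the 8, and the STAT motif TTCNNNGAA (7.02%) only before Ccl17. These are matches of letters, not measured binding.

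The KO and WT libraries held 18061470 to 20878649 estimated counts and the sorted libraries 18885002 to 28290487. Levels are given as CPM, each library's counts brought to a common total, scaled by edgeR's TMM factors. Lair1 (chr7:4003402-4063204, - strand) itself had 0.427, 0 and 3.28 CPM in KO 13, 14 and 15, against 3.75, 11.1 and 7.66 CPM in WT 9, 10 and 11 (log2 fold change -2.59 ± 1.47, edgeR adjusted p = 0.715). The library labelled KO 15 held 67 Lair1 counts, close to the 70 of WT 9, so its Lair1 level goes against its label. Without it the log2 fold change was -5.08 (edgeR adjusted p = 0.701). A count outside a deleted part would not check the label, and the labels do not give that part. In the sorted fractions Lair1 had 1.10, 0.577 and 1.95 CPM in LAIR-1- libraries, against 8.71, 12.4 and 12.2 CPM in LAIR-1+ libraries (-3.14 ± 0.34, edgeR adjusted p = 0.000346). All 10 genes of an ILC2 marker list were found in every library, led by Il5 with summed list levels of 7314 to 13619 CPM. KO against WT had a biological coefficient of variation of 0.505 and the sorted fractions 0.135. The tables were normalized separately, so a level in one is not tested against a level in the other.

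Cxcl3 and Xcr1 were the most abundant of the 10 genes in both experiments, and Ccl1, Ccl17, Ccl22 and Xcl1 stood near the limit of detection in most libraries (3 counts correspond to 0.104 to 0.166 CPM). Compared per kilobase of exon, on group means, Cxcl3 led in the knockout experiment with 144 CPM per kb in KO and 108 in WT. Xcr1 followed with 12.4 in KO and 15.7 in WT, then Cxcl2 with 5.93 in KO and 3.11 in WT. Ccl5 had 1.52 CPM per kb in KO and 2.90 in WT, and Ccl1 0.292 in KO and 0.311 in WT. In the sorted fractions Xcr1 was highest, at 8.25 CPM per kb in LAIR-1- and 9.49 in LAIR-1+ cells. In LAIR-1+ cells Ccl3 (6.33 CPM per kb), Ccl4 (6.03) and Cxcl3 (5.98) came next and lay within the spread of their libraries. In LAIR-1- cells Ccl4 stood at 0.230 CPM per kb, against 2.90 for Cxcl3 and 2.03 for Ccl5. Ccl17, Xcl1, Ccl22, Cxcl2 and Ccl1 had at most 2.45 CPM per kb in either fraction. Among the ligands, Cxcl3 alone was above 5 CPM in every library of both experiments; Xcr1, likewise above it, is a receptor and not a chemokine. In such sums over many cells, fewer cells that make a chemokine and less RNA in each of them cannot be told apart.

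**Figure D1:**
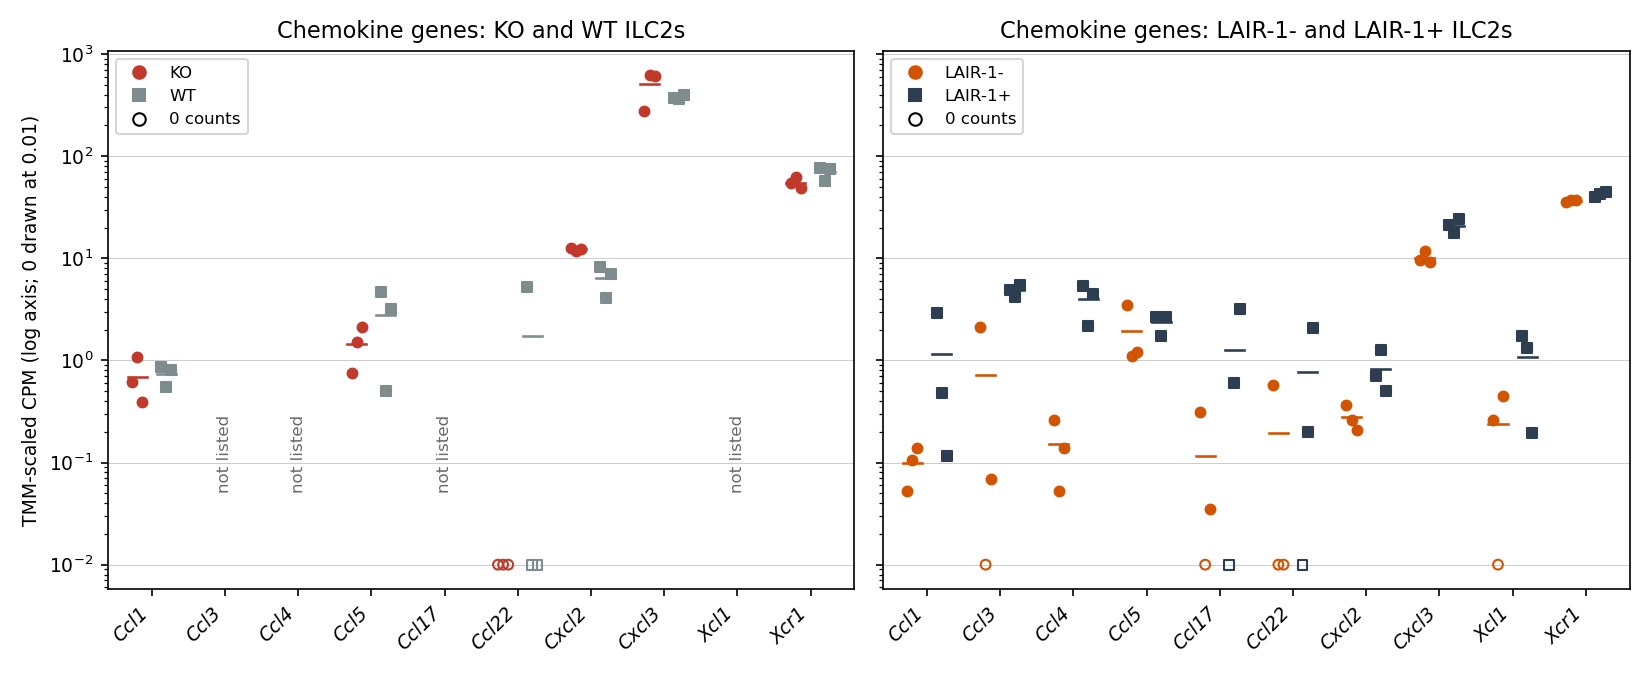
Levels of the 10 genes in each library, in TMM-scaled CPM on a log axis, with KO left of WT and LAIR-1- left of LAIR-1+; short lines are group means and open symbols libraries with 0 counts. Ccl3, Ccl4, Cxcl2, Cxcl3 and Xcr1 lie lower in LAIR-1- than in LAIR-1+ without overlap, as do 11.3% of all genes tested. Of the 6 genes listed for KO and WT only Cxcl2 separates those groups, being higher in KO, as are 8.20% of all genes tested.

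The neutrophil attractants Cxcl3 and Cxcl2 did not pass between KO and WT, and Cxcl3 fell in LAIR-1- cells. Cxcl3 had 278, 620.1 and 615 CPM in KO 13, 14 and 15, against 369, 365 and 396 CPM in WT 9, 10 and 11. KO 14 and the library labelled KO 15 lay above every WT library and KO 13 below all of them, so the groups overlapped. The log2 fold change was 0.42 ± 0.29 (SE, n = 3 each; edgeR adjusted p = 0.781). Without KO 13 it was 0.71 with an adjusted p of 0.151, and without the library labelled KO 15 it was 0.25.

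Cxcl2 had 12.7, 11.8 and 12.3 CPM in the KO libraries, against 8.25, 4.09 and 6.96 CPM in the WT libraries. Every KO library was above every WT library, which held for 8.20% of the 14164 genes tested in that direction. The log2 fold change of 0.93 ± 0.36 had an unadjusted p of 0.0390 and an edgeR adjusted p of 0.560, so it did not pass the threshold of 0.05. It was 0.93 also without the library labelled KO 15, and 0.69 to 1.15 with each library left out.

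In the sorted fractions Cxcl3 had 9.52, 11.8 and 9.12 CPM in LAIR-1- 7, 8 and 10, against 21.1, 17.6 and 24.0 CPM in LAIR-1+ 1, 2 and 3. No libraries of the groups overlapped, and the log2 fold change was -1.05 ± 0.16 (SE, n = 3 each; edgeR adjusted p = 0.00309). With each library left out it lay between -1.17 and -0.93 and kept passing; in 1 fit of all 12 libraries its adjusted p was 0.217. Cxcl2 was scarce in both fractions, with 0.368, 0.262 and 0.209 CPM in LAIR-1- and 0.710, 1.27 and 0.504 CPM in LAIR-1+ libraries. All LAIR-1- values lay below the LAIR-1+ values, but the log2 fold change of -1.57 ± 0.58 did not pass (adjusted p = 0.196).

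Whether the comparisons differed from each other was asked in an edgeR fit holding all 12 libraries. For Cxcl2 the log2 fold change of KO over WT exceeded that of LAIR-1- over LAIR-1+ by 2.50 ± 0.65, with an edgeR unadjusted p of 0.00224 and an adjusted p of 0.241. For Cxcl3 it did so by 1.48 ± 0.36 (adjusted p = 0.207 in edgeR), and without KO 13 by 1.78 (adjusted p = 0.00299). The difference passed for 0.192% of 15108 genes, and for none of the 6 chemokine genes in that fit; of these, Ccl1, Cxcl2 and Cxcl3 had an unadjusted p under 0.05, as did 9.41% of all genes. Cxcl2 and Cxcl3 are close copies of one another and of Cxcl1, so reads may be shared among them, which would make the split of their counts uncertain. The deposited counts of Cxcl2 and Cxcl3 were not whole, while those of Cxcl1 were. Sharing itself was not measured. Cxcl1 was listed at 0 in all KO and WT libraries except KO 14, with 1.27 CPM, and reached at most 0.398 CPM in the sorted ones. Cxcr2, their receptor, is not listed for KO and WT and had at most 0.142 CPM in the sorted libraries.

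Of Ccl3, Ccl4 and Ccl5, which attract monocytes and effector lymphocytes, Ccl4 fell in LAIR-1- cells and the other two did not pass. Ccl4 had 0.263, 0.052 and 0.139 CPM in LAIR-1- 7, 8 and 10, against 5.30, 2.19 and 4.46 CPM in LAIR-1+ 1, 2 and 3. The LAIR-1- values stand on 1 to 5 counts a library and the LAIR-1+ values on 55 to 115. The log2 fold change was -4.68 ± 0.55 (SE, n = 3 each; edgeR adjusted p = 0.000553), or 25.6-fold lower in LAIR-1- cells. Leaving out each library gave -5.20 to -4.34, with adjusted p of 0.000955 to 0.00512.

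Ccl3 lies 13228 bases from Ccl4 on chromosome 11 (chr11:83647844-83649355, - strand, beside chr11:83662584-83664683, + strand). It had 2.10, 0 and 0.070 CPM in LAIR-1- 7, 8 and 10, against 4.88, 4.17 and 5.51 CPM in LAIR-1+ 1, 2 and 3. The groups did not overlap, but LAIR-1- 7 held 40 Ccl3 counts while LAIR-1- 8 and 10 held 0 and 2. The log2 fold change of -2.82 ± 0.86 did not pass (edgeR adjusted p = 0.108). Without LAIR-1- 7 it was -6.70 with an edgeR adjusted p of 0.000814, while leaving out any other library gave 0.177 to 0.244. Limma-voom with quality weights gave an adjusted p of 0.0272 and DESeq2 one of 0.503. The call thus rests on 1 library and on the test. Over the 6 sorted libraries the levels of Ccl3 and Ccl4 had a Pearson r of 0.89 and those of Ccl4 and Cxcl3 of 0.95. These describe libraries that differ by group and carry no test.

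Ccl5 (chr11:83525778-83530518, - strand), which binds Ccr1 and Ccr3, showed no such separation. It had 3.52, 1.10 and 1.22 CPM in LAIR-1- libraries, against 2.65, 1.75 and 2.68 CPM in LAIR-1+ libraries, a log2 fold change of -0.29 ± 0.45 (edgeR adjusted p = 0.837), or -1.01 without LAIR-1- 7 (0.312). LAIR-1- 7 was the highest of all 6 for Ccl5, as it was the highest LAIR-1- library for Ccl3 and Ccl4. In KO 13, 14 and 15 Ccl5 had 0.759, 1.53 and 2.10 CPM, against 4.72, 0.498 and 3.15 CPM in WT 9, 10 and 11. WT libraries held both the lowest and the highest level, and the log2 fold change of -0.93 ± 0.90 had an edgeR adjusted p of 0.865; it was -1.42 without WT 10 and -0.32 without WT 9.

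The Ccr4 ligands Ccl17 and Ccl22, 58753 bases apart at chr8:94810453-94812036 and chr8:94745590-94751699 on the + strand, were found in some libraries of each fraction and not in others. Ccl17 had 0.316, 0 and 0.035 CPM in LAIR-1- libraries, against 0, 0.596 and 3.18 CPM in LAIR-1+ libraries. Ccl22 had 0.579, 0 and 0 CPM in LAIR-1- libraries, against 0, 0.199 and 2.09 CPM in LAIR-1+ libraries. LAIR-1+ 3 held most of both, with 82 Ccl17 and 54 Ccl22 counts, and LAIR-1- 7 most of the LAIR-1- counts. In the knockout experiment Ccl22 was at 0 in every library except WT 9, which held 97 counts (5.20 CPM). Over the 6 libraries of an experiment neither gene passed the filter on low counts, and Ccl17 is not listed for KO and WT. With a library left out, Ccl17 was tested between the fractions in 4 fits and did not pass (edgeR adjusted p of 0.0881 to 0.429), nor did Ccl22 in its 4 (0.470 to 0.772). In 1 fit of all 12 libraries Ccl22 did not pass either, with an edgeR adjusted p of 0.272 for KO against WT, where it rests on WT 9.

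WT 9 also held transcripts that were scarce or absent in the other KO and WT libraries. Adgre1, which encodes the macrophage antigen F4/80, had 7.56 CPM in WT 9 and at most 0.400 CPM in any other KO or WT library. Ccl6 and Ccl9, chemokines made by macrophages, had 6.48 and 1.02 CPM in WT 9 and 0 in the other 5. Of 10 macrophage and monocyte markers only 3 are listed there, Adgre1, Cd68 and Cd14. Their sum stood at 7.24 to 7.39 CPM in KO libraries, against 6.31 to 19.5 CPM in WT libraries. WT 9 was the highest, and its sum includes Adgre1 itself. Csf1r, Lyz2, Mrc1, Marco, Chil3, Fcgr1 and Itgam are not listed for KO and WT. Of other macrophage and monocyte markers, Cd68 had 7.35, 6.27 and 7.39 CPM in KO libraries, against 11.95, 6.31 and 9.11 CPM in WT libraries. Cd14 was at 0 in WT 9 and highest in KO 14 (0.968 CPM). Markers of other cell types were also high in WT 9. Prf1 of NK cells had 5.41 CPM there and at most 1.52 CPM in any other KO or WT library. Cd79a of B cells had 2.52 CPM there and at most 0.440 CPM elsewhere. Scgb1a1, Gzma and Cpa3 were at 0 in WT 9. Adgre1 and these markers of other cell types were picked after their values were seen. The part of any of them in the Ccl22 of WT 9 was not tested.

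Ccl1, the Ccr8 ligand, was likewise near the limit of detection. It had 0.616, 1.07 and 0.391 CPM in KO libraries, against 0.857, 0.553 and 0.801 CPM in WT libraries, with a log2 fold change of -0.09 ± 0.69 (edgeR adjusted p = 0.990). Its sign turned without the library labelled KO 15 (0.19) or without WT 9 (0.03). In the sorted fractions Ccl1 had 0.053, 0.105 and 0.139 CPM in LAIR-1- libraries, against 2.89, 0.477 and 0.116 CPM in LAIR-1+ libraries. LAIR-1+ 1 alone held 61 counts, LAIR-1+ 2 held 12 and LAIR-1+ 3 held 3, at the level of the LAIR-1- libraries. The gene did not pass the filter there; without LAIR-1+ 3 it was tested and had a log2 fold change of -3.95 (edgeR adjusted p = 0.0301). It was also tested without each LAIR-1- library in turn and did not pass (edgeR adjusted p of 0.219 to 0.312). Its deposited gene model spans chr11:82176657-82305690, much longer than its exons of 2369 bases.

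The pair of Xcl1 and its receptor ran at very different levels. Xcl1 (chr1:164931644-164935527, - strand) had 0.263, 0 and 0.453 CPM in LAIR-1- libraries, against 1.75, 1.31 and 0.194 CPM in LAIR-1+ libraries. LAIR-1+ 3 lay among the LAIR-1- libraries, and the log2 fold change of -2.06 ± 0.89 did not pass (edgeR adjusted p = 0.287). Leaving out LAIR-1- 10 gave -2.98 and leaving out LAIR-1- 8 gave -1.55, and neither passed. The gene lies within Gm20743 on the opposite strand, and whether the counts used strand is not given in the sources used here, so reads of the pair cannot be told apart.

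Xcr1 (chr9:123852315-123862029, - strand) was measured above the filter in all 12 libraries. It had 35.6, 37.0 and 37.6 CPM in LAIR-1- libraries, against 39.4, 42.3 and 44.9 CPM in LAIR-1+ libraries. All LAIR-1- libraries lay below all LAIR-1+ libraries, by a log2 fold change of -0.20 ± 0.10 that did not pass (edgeR adjusted p = 0.355). In the knockout experiment Xcr1 had 55.0, 61.8 and 48.5 CPM in KO libraries, against 77.2, 57.4 and 75.0 CPM in WT libraries. WT 10 lay within the KO range, and the log2 fold change of -0.34 ± 0.17 had an edgeR adjusted p of 0.675. Xcr1 is known as a marker of cDC1. Clec9a, another marker of cDC1, and Flt3, of dendritic cells more widely, are not listed in either table. Batf3 of the dendritic cell list, named after its values were seen, passed the filter in neither experiment. Its highest levels were 3.72 CPM in KO 14 and 0.543 CPM in LAIR-1+ 3. Of the dendritic cell list, Irf8 was highest, with 37.8, 24.9 and 32.9 CPM in LAIR-1- and 74.3, 58.8 and 34.7 CPM in LAIR-1+ libraries. These fractions overlapped, and the log2 fold change of -0.81 ± 0.23 did not pass (edgeR adjusted p = 0.0837). In KO over WT that of Irf8 was -0.96 ± 0.28 (0.435). Zbtb46 of the same list, named after its values were seen, had 0.947, 1.15 and 1.74 CPM in LAIR-1- libraries, against 0.805, 0.596 and 0.427 CPM in LAIR-1+ libraries. Its log2 fold change was 1.09 ± 0.47 there (edgeR adjusted p = 0.286) and 1.02 ± 1.45 in KO over WT (0.930). Itgax of the same list, also named after its values were seen, went the other way in the sorted fractions. It had a log2 fold change of -3.23 ± 0.98 there (edgeR adjusted p = 0.108), and it is not listed for KO and WT. The summed list was 26.1 to 40.2 CPM in LAIR-1- and 41.5 to 76.2 CPM in LAIR-1+ libraries, and 14.3 to 21.0 CPM in KO and 22.6 to 33.9 CPM in WT libraries. Most of that sum was Irf8 in every library. The part of these markers in the level of Xcr1 was not tested.

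Counted together, none of the 5 of these genes tested between KO and WT passed the threshold in edgeR, where 0.00706% of all genes did. DESeq2 and limma called none either, but DESeq2 gave no adjusted p for Ccl1 and Ccl5, so it could not call them. Of the 5, 1, Cxcl2, had an unadjusted p under 0.05 in edgeR (8.37% of all genes). In LAIR-1- against LAIR-1+, 2 of the 7 tested, Ccl4 and Cxcl3, passed and fell, where 4.01% of the 14261 genes passed and 2.71% fell. Another 3, Ccl3, Cxcl2 and Xcl1, had an unadjusted p under 0.05 without passing, a level reached by 15.4% of all genes. All LAIR-1- libraries lay below all LAIR-1+ libraries for 5 of the 7, against 11.3% of all genes. The median log2 fold change of the 7 was -1.57, against 0.01 for all genes. Ccl4 and Cxcl2 entered the test through their LAIR-1+ libraries alone, since none of their LAIR-1- libraries reached the filter's level of 0.431 CPM. Ccl3 and Xcl1 reached it in 1 LAIR-1- library each and in 3 and 2 LAIR-1+ libraries. Such genes were tested because they were high in LAIR-1+ cells, so these counts and this median describe the genes tested and support nothing further.

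**Figure D2:**
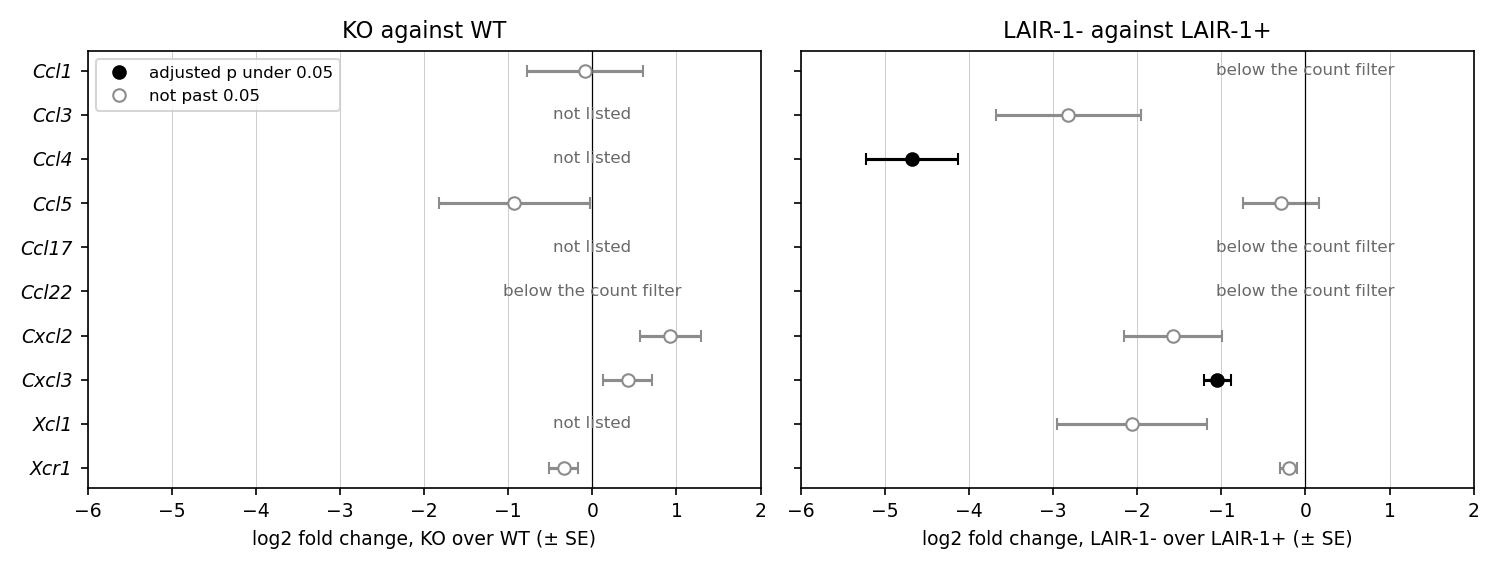
Log2 fold changes with standard errors from edgeR for the genes tested, KO over WT on the left and LAIR-1- over LAIR-1+ on the right; filled points had an adjusted p under 0.05. Ccl4 (-4.68) and Cxcl3 (-1.05) are the filled points, both for LAIR-1- against LAIR-1+, and no point is filled for KO against WT.

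Further chemokines also fell in LAIR-1- cells. Of 28 further ligands, 17 were listed and 5 tested; 3 fell, where 2.71% of all genes fell, and none rose in LAIR-1- cells. Ccl6, a chemokine of mouse macrophages and other myeloid cells, had 0.158, 0.367 and 0.104 CPM in LAIR-1- libraries, against 6.06, 6.44 and 15.9 CPM in LAIR-1+ libraries (log2 fold change -5.55 ± 0.54, edgeR adjusted p = 0.000182). Ccl9, its close relative, had 1.21, 0.105 and 0 CPM in LAIR-1- libraries, against 5.30, 7.23 and 16.1 CPM in LAIR-1+ libraries (-4.58 ± 0.78, edgeR adjusted p = 0.00623; DESeq2 adjusted p = 0.0881). Ccl2, which draws monocytes through Ccr2, had 0.105, 0.105 and 0.209 CPM in LAIR-1- libraries, against 2.04, 1.43 and 1.20 CPM in LAIR-1+ libraries (-3.36 ± 0.55, edgeR adjusted p = 0.00484). None of these groups overlapped, and Ccl25, the highest of the further ligands together with Ccl9 and Ccl6, had a log2 fold change of -0.20 ± 0.31 (edgeR adjusted p = 0.834). Ccl2 and Ccl6 entered the test through their LAIR-1+ libraries alone. With each library left out Ccl6 was at -6.18 to -4.94 and Ccl9 at -7.65, without LAIR-1- 7, to -3.85, and both kept passing. In 1 fit of all 12 libraries Ccl6 (adjusted p = 0.637) and Ccl9 (0.834) did not pass, and Ccl2 was not in it. Between KO and WT, 11 further ligands were listed, 4 were tested and none passed in edgeR, with none at an unadjusted p under 0.05. The highest there were Ccl25, Cx3cl1 and Cxcl5, with a highest mean of 8.35 CPM for Ccl25.

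Markers of macrophages and monocytes were also lower in LAIR-1- libraries as a sum. The summed list was 6.30 to 36.8 CPM in LAIR-1- libraries, against 65.0 to 165 CPM in LAIR-1+ libraries. Within a fraction the order of libraries was not shared by all these genes. LAIR-1- 8, with the highest sum of its fraction (36.8 CPM, of which Chil3 was 27.8), had the lowest Ccl4 (0.052 CPM) and the highest Ccl6 (0.367 CPM) there. These stand on 1 Ccl4 and 7 Ccl6 counts, near the limit of detection. In LAIR-1+ 1, 2 and 3 the sum was 65.0, 97.2 and 165 CPM. Ccl6, Ccl9, Chil3 and Cd68 rose in that same order, while Ccl4, Cxcl3, Ccl2, Lyz2, Csf1r, Cd14 and Itgam did not. Of 10 markers, 8 were listed and 6 tested, and 3 of the 6 fell, Lyz2, Cd14 and Itgam, where 2.71% of all genes fell. Cd14 and Itgam entered the test through their LAIR-1+ libraries alone. Chil3, the highest of them, had 6.58, 27.8 and 0 CPM in LAIR-1- libraries, against 31.9, 70.2 and 128 CPM in LAIR-1+ libraries (edgeR adjusted p = 0.121). Lyz2, which encodes lysozyme of myeloid cells, had 2.47, 1.84 and 0 CPM in LAIR-1- libraries, against 22.6, 11.1 and 20.6 CPM in LAIR-1+ libraries (log2 fold change -3.77 ± 0.64, edgeR adjusted p = 0.00627). Csf1r, a defining receptor of the lineage, had 0.842, 0 and 0 CPM in LAIR-1- libraries, against 0.616, 3.26 and 2.02 CPM in LAIR-1+ libraries, and Marco and Fcgr1 are not listed. Mrc1 was at 0 in all LAIR-1- libraries and in LAIR-1+ libraries 1 and 3. Cd68 had 6.10, 6.88 and 6.30 CPM in LAIR-1- libraries, against 7.34, 9.14 and 12.4 CPM in LAIR-1+ libraries (-0.59 ± 0.21, edgeR adjusted p = 0.179). Adgre1 had 0.368, 0.052 and 0 CPM in LAIR-1- libraries, against 0.426, 0.755 and 0.078 CPM in LAIR-1+ libraries. Its groups overlapped and it did not pass the filter. Lyz2, Csf1r, Cd68 and Adgre1 are named here after their values were seen. The part of these cells in the fall of Ccl4, Cxcl3, Ccl6, Ccl9 and Ccl2 was not tested.

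Markers of other cell types gave mixed values. The list of NK cells and ILC1s, which are known to make Xcl1, Ccl3, Ccl4 and Ccl5, was higher in LAIR-1- libraries as a sum, at 88.5 to 100.6 CPM in LAIR-1- libraries against 13.4 to 27.2 CPM in LAIR-1+ libraries. Most of that sum in LAIR-1- libraries was Gzma, with 83.5, 98.7 and 93.4 CPM there, against 4.40, 7.27 and 17.8 CPM in LAIR-1+ libraries. Gzma rose (log2 fold change 3.21 ± 0.35, edgeR adjusted p = 0.000346), while 4 of the 5 tested genes of the list had a negative fold change. Neutrophil markers summed to 0.104 to 0.631 CPM in LAIR-1- and 0.349 to 4.21 CPM in LAIR-1+ libraries, with S100a9 highest, and eosinophil markers to at most 0.853 CPM, with Ear1 highest. None of the 3 T cell markers tested, led by Cd3g, none of the 7 mast cell and basophil markers, led by Cpa3, and not the 1 B cell marker tested, Cd79b, passed in edgeR; 1, 4 and 1 of these had an unadjusted p under 0.05. Of 4 epithelial and stromal markers tested 2 rose, Pecam1 (log2 fold change 0.71) and Epcam (0.51). The other 2, Scgb1a1 and Cdh1, fell and entered the test through their LAIR-1+ libraries alone. Scgb1a1 had 0 CPM in every LAIR-1- library, against 3.13, 76.8 and 28.9 CPM in LAIR-1+ libraries (log2 fold change -12.7 ± 2.00, edgeR adjusted p = 0.00666). For Cdh1 the log2 fold change was -3.05 ± 0.62 (edgeR adjusted p = 0.0162). Of the 10 ILC2 markers, Icos and Klrg1 rose, Arg1 fell and 7 did not pass. Between KO and WT no marker of any list passed in edgeR, while 6 ILC2 markers, 1 dendritic cell marker and 2 epithelial and stromal markers had an unadjusted p under 0.05. The highest by list were Il5, Cd3g, Prf1, Cd68, Irf8, Ly6g, Cpa3, Cd79b and Epcam, and no eosinophil marker is listed. The part of any of these in the chemokine values was not tested.

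**Figure D3:**
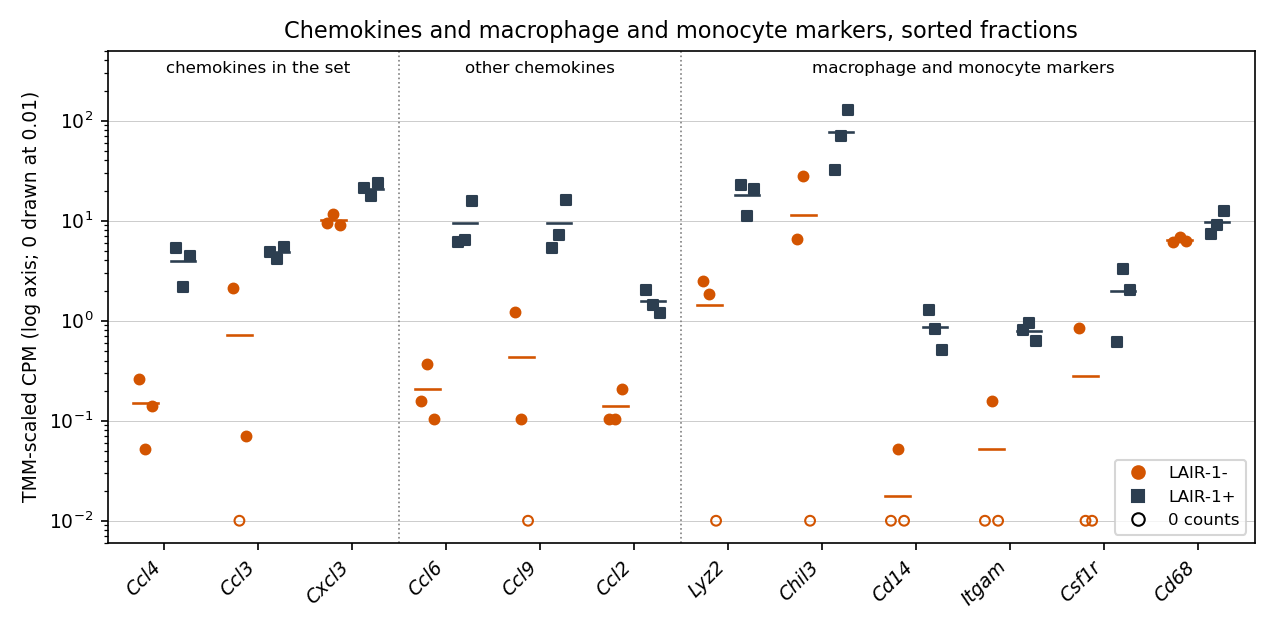
Chemokines and macrophage and monocyte markers in the sorted libraries, in TMM-scaled CPM on a log axis, with LAIR-1- left of LAIR-1+; lines are group means and open symbols libraries with 0 counts. Ccl4, Ccl3, Cxcl3, Ccl6, Ccl9, Ccl2, Lyz2, Chil3, Cd14, Itgam and Cd68 have their LAIR-1- points all lower than their LAIR-1+ points, and Csf1r does not.

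Transcripts of receptors for these chemokines were also measured, and in edgeR Ccr3 and Ccr4 rose in LAIR-1- cells. Of 8 receptors, 5 were listed in the sorted fractions and 4 tested; 2 rose and none fell, where 1.30% of all genes rose. For the same 2, Ccr3 and Ccr4, the LAIR-1- libraries lay above the LAIR-1+ libraries without overlap, as for 9.64% of all genes. Ccr3, the eotaxin receptor that also binds Ccl5, had 10.6, 9.87 and 7.38 CPM in LAIR-1- libraries, against 1.70, 2.03 and 2.17 CPM in LAIR-1+ libraries (log2 fold change 2.23 ± 0.23, edgeR adjusted p = 0.000257). Ccr4, the receptor of Ccl17 and Ccl22, had 60.3, 58.6 and 57.8 CPM in LAIR-1- libraries, against 32.2, 33.3 and 34.5 CPM in LAIR-1+ libraries (0.82 ± 0.09, edgeR adjusted p = 0.000358). Ccr8, the receptor of Ccl1 and the highest of the 4, had a log2 fold change of -0.28 ± 0.07 and did not pass (edgeR adjusted p = 0.0538). All its LAIR-1- libraries (97.7 to 106 CPM) lay below all its LAIR-1+ libraries (122 to 128 CPM), and it was called lower by DESeq2 (adjusted p = 0.0142), by limma-voom with quality weights (0.0410) and by edgeR at a mean of at least 5 CPM (0.0432). Ccr1 had a log2 fold change of 0.11 ± 0.13. The median over the 4 was 0.47, against 0.01 for all genes. In 1 fit of all 12 libraries none of the 4 passed, the adjusted p of Ccr4 being 0.0666.

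Among 13 other chemokine receptors, 7 were tested in the sorted fractions and 2 passed. Ccr7, the receptor for homing to lymph nodes, had 22.9, 26.6 and 19.5 CPM in LAIR-1- libraries, against 10.0, 10.3 and 11.9 CPM in LAIR-1+ libraries (1.09 ± 0.15, edgeR adjusted p = 0.00154). Ccr2, the receptor of Ccl2, fell (-0.39 ± 0.08, edgeR adjusted p = 0.0153), a call that leaving out LAIR-1- 7 (adjusted p = 0.0826) or leaving out LAIR-1+ 2 (0.0579) ended. In 1 fit of all 12 libraries neither passed, with edgeR adjusted p of 0.9999 for Ccr7 and 0.764 for Ccr2. Between KO and WT none of the 5 tested passed in edgeR, and 1, Ccr7, had an unadjusted p under 0.05. Cxcr6 was the most abundant receptor, with a mean of 1684 CPM over the sorted libraries and 2178 CPM over KO and WT.

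Between KO and WT none of the 4 tested receptors of these chemokines passed in edgeR, and Ccr4 and Ccr1 had an unadjusted p under 0.05. Ccr4 had 53.1, 68.1 and 84.8 CPM in KO libraries, against 32.4, 38.6 and 33.4 CPM in WT libraries. All KO libraries lay above all WT libraries, as they did for Ccr1. Its log2 fold change of 0.98 ± 0.21 had an adjusted p of 0.291 in edgeR and 0.00294 in DESeq2, and it was 0.80 without the library labelled KO 15. Ccr1 had 42.6, 66.5 and 38.6 CPM in KO libraries, against 11.1, 16.0 and 36.9 CPM in WT libraries, and a log2 fold change of 1.21 ± 0.47 (edgeR adjusted p = 0.559), or 1.86 without WT 11 (0.239). In 1 fit of all 12 libraries the adjusted p of Ccr4 was 0.0137, and it alone of the chemokine genes passed there between KO and WT. The log2 fold change of Ccr4 was thus 0.98 in KO over WT and 0.82 in LAIR-1- over LAIR-1+. In edgeR only the second passed when each experiment was fitted alone, while DESeq2 called both.

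**Figure D4:**
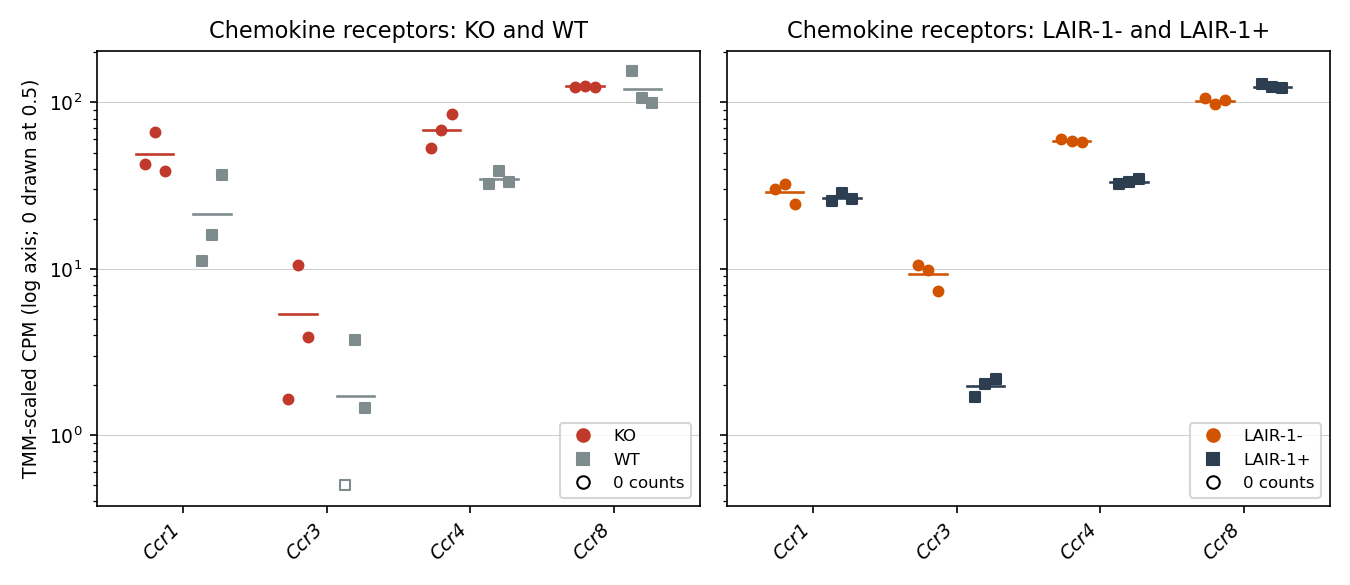
Receptors of the chemokines by library, in TMM-scaled CPM on a log axis, with KO left of WT and LAIR-1- left of LAIR-1+; lines are group means and the open symbol a library with 0 counts. Ccr4 lies higher in every KO than in every WT library and in every LAIR-1- than in every LAIR-1+ library.

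For the 3 of the 10 genes with the highest mean over all 12 libraries, Cxcl3, Xcr1 and Cxcl2, the genes with the most similar course over the 12 libraries were listed, each gene centred within its own experiment, among 9505 genes. Cxcl2 has its place through the KO and WT libraries, with a mean of 9.34 CPM there and 0.554 CPM in the sorted libraries. Cxcl3 was most like Sec11c (Pearson r = 0.91), Cd82 (0.87) and Pdia3 (0.87). Xcr1 was most like Atg9a (0.95), Cenpb (0.94) and Glmp (0.94). Cxcl2 was most like 2610021A01Rik (0.92), Ankzf1 (0.91) and Mtr (0.91). These describe libraries of 2 experiments and carry no test.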

How the data were processed

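ILC2s sorted from mouse lung were profiled by RNA sequencing in 12 libraries. The authors deposited, per experiment, estimated counts per gene and, for the same genes, CPM, equal to the count over a library total plus 0.0001. Per the submitters' processing notes, bcl2fastq 2.17.1.14, Partek and STAR 2.5.3a were used with mm10; which tool counted, on which annotation, is not given in the sources used here. Counts that were not whole within 0.001, as when reads are shared between genes, made up 47.9% (KO and WT) and 44.4% (sorted) of the deposited values.

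Groups came from the sample labels. Estimated counts were rounded, filtered with filterByExpr and scaled by TMM, and each experiment was tested over all its genes with edgeR 4.0.16 (quasi-likelihood F test, Benjamini-Hochberg adjustment, threshold 0.05) in R 4.3.3. Log2 fold changes are KO over WT and LAIR-1- over LAIR-1+. The 10 genes, the lists of other chemokine genes and 10 lists of cell type markers were chosen with earlier results of these data known. Beside these, the genes named were Lair1, passing and highest genes of the chemokine lists, the highest gene of each marker list and the most similar genes of the 3 most abundant members; exceptions are marked, except passing markers, which were named after their values were seen. Lengths are exon bases of GENCODE M21, whose spans equal the deposited ones. Alternatives were other size factors, other filters, DESeq2 1.42.0, limma 3.58.1, 1 fit of all 12 libraries and leaving out each library; the test of the difference was added after seeing the data. The test was tried on simulated counts with 200 changed genes of at least 5 CPM. Of 2-fold changes edgeR recovered 24.7% between KO and WT and 91.8% between the sorted fractions. Of 1.5-fold changes it recovered 7.14% and 69%. Not passing between KO and WT therefore does not show that a gene is unchanged. A gene of the chemokine lists is not reported here.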

Additional observations from a re-analysis of the deposited data

Results flagged for a closer look

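Cxcl2 lay on opposite sides in the 2 comparisons. Every KO library (11.8 to 12.7 CPM) lay above every WT library (4.09 to 8.25 CPM), the library labelled KO 15 included, as for 8.20% of genes tested. Every LAIR-1- library (0.209 to 0.368 CPM) lay below every LAIR-1+ library (0.504 to 1.27 CPM), as for 11.3% of genes tested. Neither fold change passed (edgeR adjusted p = 0.560 and 0.196). Between the fractions Cxcl2 entered the test through its LAIR-1+ libraries alone. The difference of the log2 fold changes was 2.50 ± 0.65 in 1 edgeR fit of all 12 libraries, with an unadjusted p of 0.00224 and an adjusted p of 0.241, so it did not pass over all genes. With each library left out it was 2.05 to 2.74. The levels of the sorted libraries rest on few counts, and any reads shared with Cxcl3 or Cxcl1, which were not measured, would make them uncertain.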

How the results depend on the processing

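Each setting tested 3 to 6 of the 10 genes between KO and WT, and none called any of them. Of all genes, 1 was called there with TMM and filterByExpr, against 5 at a mean of at least 5 CPM, 297 by DESeq2, 2 by limma-voom with quality weights, 266 in 1 fit of all 12 libraries and 0 with each library left out (0 to 0). Of the other chemokine genes edgeR called 0 there, while DESeq2 and the fit of all 12 libraries each called 1, Ccr4. In LAIR-1- against LAIR-1+, the 572 genes called were 54 in the fit of all 12 libraries and 333 to 516 with each library left out. The 2 called chemokine genes were 1 under the 5 CPM filter, which removes Ccl4, 0 in the fit of all 12 libraries and 2 to 3 with each library left out. Limma called 3, Ccl3 being the third. The other chemokine genes, 7 by edgeR, were 0 in the fit of all 12 libraries and 6 to 7 with each library left out. The cause was not tested; that fit shares a coefficient of variation of 0.402, against 0.135 in the sorted libraries alone, and lacks Ccl4. The 29 genes called for the difference were 3 to 235 with each library left out. Signs turned for Ccl1 in KO against WT (-0.54 to 0.19 with each library left out) without the library labelled KO 15 (0.19) and without WT 9 (0.03). They also turned for the difference of Ccl22 (-9.00 to 2.01) without WT 9 and for that of Ccl5 (-1.13 to 0.11) without LAIR-1- 7. No paired analysis was possible because the labels pair no libraries, and the groups compared share no replicate numbers. The labels do not say whether LAIR-1- and LAIR-1+ libraries came from the same mice. Any such pairing was not used. Depth limits Ccl1, Ccl17, Ccl22, Xcl1 and, in LAIR-1- cells, Ccl3, Ccl4 and Cxcl2, which rest on few counts.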
